A study of Mus musculus with 24 samples.

Results

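The genes described here encode the proteins of the cytosolic ribosome in the visual cortex of the mouse. They were chosen by symbol: rows beginning with Rpl or Rps and a digit, plus Rplp0, Rplp1, Rplp2 and Rpsa, leaving out the ribosomal S6 kinases, the Rps19 binding protein and pseudogenes marked as such. This gave 86 of the 23881 genes in the table, 53 of the large (60S) subunit and 33 of the small (40S) subunit, spread over 19 chromosomes. The mRNA libraries of visual cortex formed 3 groups of 4 libraries, all from normally reared C57BL6J mice of both sexes. P28-KO came from mice at postnatal day 28 in which the miR-132/212 locus was deleted in every tissue, P28-WT from wild-type mice of the same age, and P10-WT from wild-type mice at postnatal day 10. Mutants and wild types were littermates per the study's methods, and no Cre or floxed allele was part of these groups. P28-KO and P28-WT libraries differ by genotype, P28-WT and P10-WT libraries by age, and P28-KO and P10-WT libraries by both. The study's text gives as many mice as libraries for each group, while the labels do not say whether a library held 1 animal or several. In 4 of the 12 libraries both Xist, which females express, and Ddx3y, a gene of the Y chromosome, exceeded 4 RPKM. These were P28-KO replicates 1 and 3, P28-WT replicate 1 and P10-WT replicate 2. The p-values therefore set a difference of group means against the spread between libraries, which need not be the spread between animals.

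A ribosome is built from ribosomal RNA and a single copy of most ribosomal proteins, and a cell that grows or extends processes makes these proteins in large amounts. Their mRNAs in vertebrates start with a cytosine followed by a run of pyrimidines, the terminal oligopyrimidine (TOP) tract, through which mTOR signalling and Larp1 control their translation as a group. In neurons part of these mRNAs is carried into axons and dendrites, where ribosomal proteins can be made locally.

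The transcript starts of 6 genes whose values are described below are shown to let a reader see this tract. Each is the 30 bases around the RefSeq start in build GRCm38.p6, 15 before it and 15 from it on, read 5′ to 3′ on the gene's strand, with the letters CTTTC in capitals. Rpl15, Rps26 and Rpl38 were lower in P28-WT than in P10-WT libraries and hold the letters, Rpl28 had the smallest p among these genes between P28-KO and P28-WT libraries, and Rplp0 and Rpsa were lower in P28-WT than in P10-WT libraries without holding them.
Rpl15 (chr14:18270972-18271001, minus strand): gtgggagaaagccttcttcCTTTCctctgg
Rps26 (chr10:128626492-128626521, minus strand): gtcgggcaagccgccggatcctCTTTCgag
Rpl38 (chr11:114668565-114668594, plus strand): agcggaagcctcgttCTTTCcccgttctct
Rpl28 (chr7:4792950-4792979, plus strand): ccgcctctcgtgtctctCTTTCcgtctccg
Rplp0 (chr5:115559452-115559481, plus strand): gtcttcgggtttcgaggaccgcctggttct
Rpsa (chr9:120127751-120127780, plus strand): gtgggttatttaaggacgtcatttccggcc

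In the wider window of 25 bases before to 25 after the start, CTTTC stood on the gene's strand in 19 of the 65 ribosomal protein genes with a RefSeq promoter (29.2%), against 7.87% of all 27025 genes in that table. On the other strand, where the same letters read GAAAG, the shares were 10.8% and 7.07%. The letters CTTCCGG, which ETS factors can bind, were present between 250 bases before and 50 after the start in 15.4% of the ribosomal protein genes on the gene's strand and in 26.2% on the other strand as CCGGAAG, against 5.4% of all genes on either strand. CTTTC and CTTCCGG share no stretch longer than CTT and were counted apart. A match is a description of the letters only, and a missing match does not show that a gene lacks the tract.

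RPKM scales the reads of a gene by exon length and by the mapped reads of the library, so it is a level per length. Levels of these genes can be compared only roughly, because reads that match several places were not counted while the full exon length was. Of the 86 genes, 82 reached the minimum of 0.5 for the mean RPKM of the 12 libraries and were tested, 49 of the 60S and 33 of the 40S subunit. Their mean levels spanned a 435-fold range with a median of 25.3 RPKM. The highest were Rplp1 (368 RPKM), an acidic stalk protein that binds elongation factors, Rps15 (277 RPKM), a protein of the 40S head, and Rpl13a (244 RPKM), a 60S protein that also takes part in translational silencing in human myeloid cells. The lowest of those tested were Rps29 (0.846 RPKM), Rpl24 (0.852 RPKM) and Rpl26 (1.14 RPKM), although each encodes a standard ribosome component. In all, 16 of the tested genes averaged over 100 RPKM and 22 under 5 RPKM.

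Ribosomal protein genes have many processed copies in the mouse genome, and the authors dropped reads that matched several places. Over the RefSeq transcripts of the 86 genes, the median share of 50-base stretches with an exact second copy elsewhere in the genome was 61.7%, and it exceeded 50% in 53 genes. For the 77 mitochondrial ribosomal protein genes the median was 0%, and 5 exceeded 50%. Rps27 and Rpl28 had no unique stretch (100%), while Rpl22 (5.11%), Rpl7l1 (14.8%) and Rps27l (16.7%) had low shares of copied stretches. Across the 86 genes the share and the mean RPKM had a Spearman correlation of -0.24, given as a description across genes that share libraries and a filter. The study's reads were paired and longer than 50 bases, so these shares can overstate how many reads were dropped. Rps27 and Rpl28 still averaged 3.21 and 2.23 RPKM over all libraries. The part of these copies in the levels was not tested. For Rpl26, Rpl30 and Rps27 the listed row spans fewer than 300 bases, less than the RefSeq gene, and which bases were counted is not given. Rps4l is annotated by RefSeq as a transcribed pseudogene. Small nucleolar RNA or microRNA rows lie inside 24 of the genes, and overlapping rows cannot be told apart without strand.

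The libraries were first compared over all 82 tested genes, because the P28-WT group held one that stood apart. P28-WT replicate 2 had a summed level of 5843 RPKM over the 86 genes, against 3445 to 4439 RPKM in the other P28-WT libraries. The P28-KO libraries had 3388 to 4311 RPKM and the P10-WT libraries 4687 to 5296 RPKM. It was the highest of its group for 72 of the 82 genes. Its short transcripts were high outside this gene family as well: for the 1027 other genes with transcripts of up to 1 kb, its median deviation from the mean of the 12 libraries was 0.36 on the log2 scale, and for the 4532 genes over 4 kb it was -0.15. Ribosomal protein transcripts are short, with a median length of 729.5 bases against 3024.5 bases over all genes tested, and 60 of the 82 lie in the class of up to 1 kb. It was also the 1 P28-WT library with Ddx3y near 0 (0.0181 RPKM, against 4.76 to 11.3 RPKM in the other P28-WT and 5.85 to 13.1 RPKM in the P10-WT libraries). P28-KO replicate 2 had Ddx3y near 0 as well (0.0363 RPKM). Its summed level was 4311 RPKM and its median deviation in the class of up to 1 kb was 0.06. The part of transcript length and of sex in the results was not tested, and the main results are given with and without P28-WT replicate 2.

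**Figure D1:**
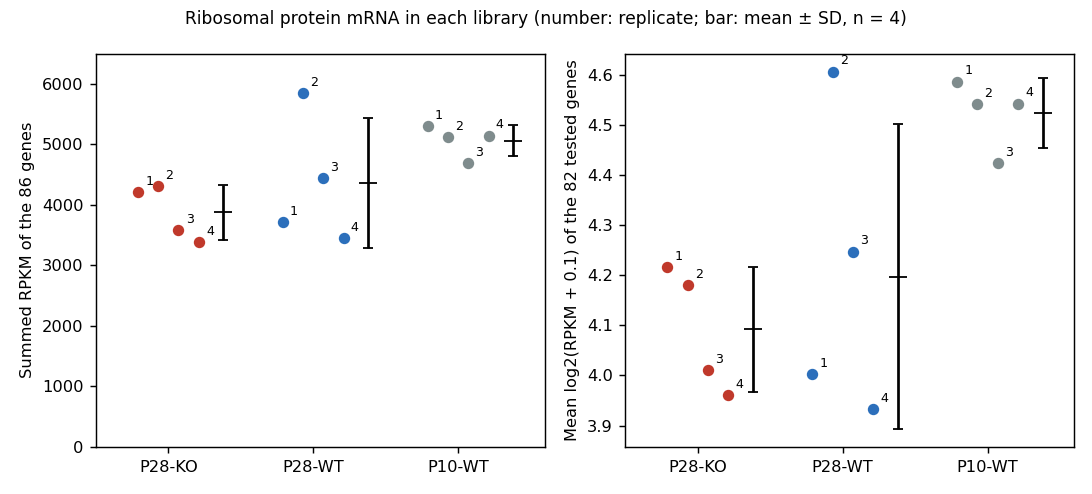
Left, the RPKM summed over the 86 ribosomal protein genes in each library, and right, the mean log2(RPKM + 0.1) of the 82 tested genes (axis not from 0). Points are libraries with their replicate number and bars show mean ± SD of 4 libraries. P28-WT replicate 2, at 5843 RPKM, lies above all P10-WT libraries, while the other P28-WT libraries and all P28-KO libraries lie below all P10-WT libraries.

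**Figure D2:**
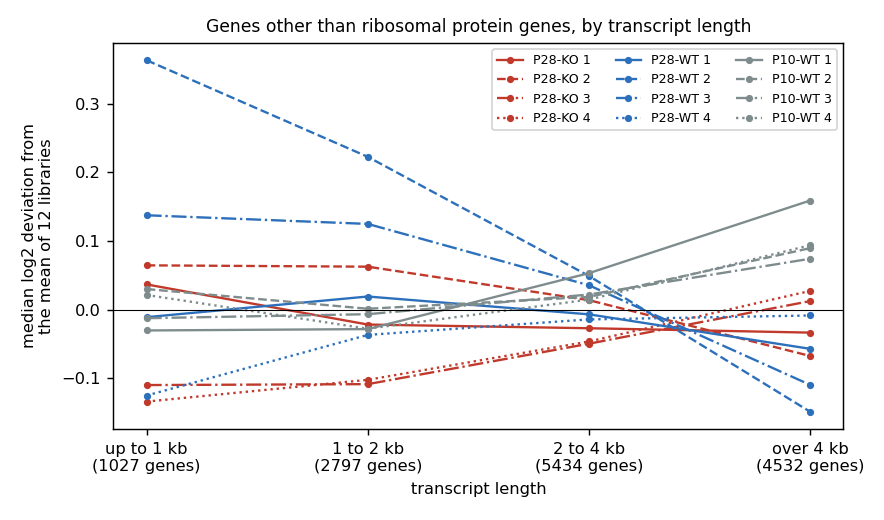
Median log2 deviation of each library from the mean of the 12 libraries, for genes other than the ribosomal protein genes in 4 classes of transcript length. Lines are libraries, coloured by group and drawn by replicate. P28-WT replicate 2 runs between 0.36 in the shortest class and -0.15 in the longest. In the longest class every P10-WT library (0.07 to 0.16) lies above every P28-KO and P28-WT library (-0.15 to 0.03).

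The mean log2(RPKM + 0.1) over the tested genes was 4.09 ± 0.12 in P28-KO, 4.20 ± 0.30 in P28-WT and 4.52 ± 0.07 in P10-WT libraries (SD, n = 4 each). All P28-KO libraries lay below all P10-WT libraries, with 3.96 to 4.22 against 4.42 to 4.59. The P28-WT libraries overlapped the P10-WT libraries through replicate 2 alone, which stood at 4.61, the others lying between 3.93 and 4.25. Within bulk tissue, fewer cells of a type and less RNA per cell cannot be told apart.

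The comparison of P28-WT with P10-WT libraries asked how these mRNAs change with age in the normal visual cortex. Of the 82 genes, 31 (37.8%) were lower in P28-WT libraries at a Benjamini-Hochberg adjusted p under 0.05 from limma, 2 (2.44%) were higher and 49 did not pass. Among all 13927 genes tested, 31.2% were lower and 26.7% higher, so the share of lower ribosomal protein genes was near that of all genes and the share of higher ones was smaller. The median log2 fold change of the 82 genes was -0.34, against -0.05 over all genes, and 68 of them had a negative value. The groups did not overlap, with P28-WT below P10-WT, for 20 of the 82 genes, where 29.7% of all genes had this pattern. Without P28-WT replicate 2, 51 genes were lower, among them all 31, and the median was -0.47. That library was singled out by its high values for these same genes, so leaving it out lowers their P28-WT means by construction. Without P28-WT replicate 1 or without replicate 4, 23 genes were lower. The share over all genes was not taken in those 2 fits. With each library corrected for a trend on GC content and on transcript length, 51 were lower, 30 of them among the 31, 0 were higher, and the median was -0.43. Of all genes, 33% were lower without P28-WT replicate 2 and 31.1% with the trend removed, beside 51 of the 82 genes in each setting.

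Rplp0, the base of the ribosomal stalk and a widely used reference gene for quantitative PCR, had 77.4, 99.6, 89.8 and 71.7 RPKM in P28-WT libraries, against 198, 161, 164 and 173 RPKM in P10-WT libraries. Its log2 fold change was -1.05 (standard error, SE, 0.12, adjusted p = 3.84e-05, limma), and every P28-WT library lay well below every P10-WT library. Its partners on the stalk did not pass with all libraries. Rplp1 averaged 374 ± 74.8 RPKM in P28-WT and 408 ± 22.0 RPKM in P10-WT libraries (SD, n = 4 each), a log2 fold change of -0.14 (SE 0.14). Rplp2 averaged 77.8 ± 33.5 RPKM in P28-WT and 88.4 ± 12.8 RPKM in P10-WT libraries, a log2 fold change of -0.26 (SE 0.24). Both overlapped between the groups. Without P28-WT replicate 2 Rplp2 passed (-0.52, adjusted p = 0.0140, limma) and Rplp1 did not (-0.26, adjusted p = 0.0800), and with the GC and length correction both passed (Rplp2 -0.49, adjusted p = 0.0351, and Rplp1 -0.38, adjusted p = 0.000836). Whether the stalk genes differ from each other was not tested.

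Rpl15, a 60S protein, had the lowest fold change of the family. Its values were 15.1, 23.2, 17.9 and 18.2 RPKM in P28-WT libraries, against 48.1, 40.9, 39.0 and 40.8 RPKM in P10-WT libraries. The log2 fold change was -1.19 (SE 0.12, adjusted p = 2.57e-05, limma), without overlap between the groups. Rpl30, which can block splicing of its own transcript in yeast, averaged 8.29 ± 1.18 RPKM in P28-WT and 16.3 ± 1.10 RPKM in P10-WT libraries (log2 fold change -0.97). Rpl5 binds 5S ribosomal RNA and, when free of the ribosome, the p53 regulator Mdm2. It averaged 1.35 ± 0.138 RPKM in P28-WT and 2.70 ± 0.305 RPKM in P10-WT libraries (log2 fold change -0.95). Rpl27, another 60S protein, averaged 1.16 ± 0.309 RPKM in P28-WT and 1.93 ± 0.262 RPKM in P10-WT libraries (log2 fold change -0.71). None of these 4 genes overlapped between the groups.

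Among 40S genes, Rpsa, also known as the laminin receptor precursor, had 26.4, 34.4, 32.7 and 28.8 RPKM in P28-WT libraries, against 57.6, 53.9, 54.6 and 53.3 RPKM in P10-WT libraries. Its log2 fold change was -0.85 (SE 0.09, adjusted p = 2.96e-05, limma), and the groups were far apart. Rps26, which lies at the mRNA exit channel, had 84.9, 124, 96.5 and 74.7 RPKM in P28-WT libraries, against 163, 157, 163 and 165 RPKM in P10-WT libraries. Its log2 fold change was -0.79 (SE 0.14, adjusted p = 0.000664, limma), again without overlap. Rps2, at the mRNA entry channel, averaged 42.6 ± 5.25 RPKM in P28-WT and 69.3 ± 7.51 RPKM in P10-WT libraries (log2 fold change -0.70). By subunit, 16 of 49 genes of the 60S and 15 of 33 of the 40S subunit were lower, with median log2 fold changes of -0.26 and -0.40. These are 32.7% and 45.5% of the genes, beside 31.2% of all genes. The difference between the subunits was not tested.

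Rpl39, a very small protein at the exit tunnel of the 60S subunit, had 21.9, 58.6, 26.9 and 23.2 RPKM in P28-WT libraries, against 59.9, 65.2, 36.9 and 58.8 RPKM in P10-WT libraries. Its log2 fold change was -0.85 (SE 0.29, adjusted p = 0.0300, limma) with all libraries and -1.17 (adjusted p = 0.000478) without P28-WT replicate 2, the only P28-WT library to reach the P10-WT range. P10-WT replicate 3, at 36.9 RPKM, was the low one of its own group. Rpl38, a 60S protein needed for the translation of Hox mRNAs in mouse embryos, had a log2 fold change of -0.68 (SE 0.24, adjusted p = 0.0299, limma), with overlap.

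The 2 genes that passed as higher were Rpl23a, a 60S protein at the exit tunnel that binds the signal recognition particle, and Rps14, a 40S protein. Rpl23a had 2.08, 2.44, 2.07 and 2.23 RPKM in P28-WT libraries, against 1.42, 1.54, 1.87 and 1.81 RPKM in P10-WT libraries. The groups did not overlap, and the log2 fold change was 0.39 (SE 0.13, adjusted p = 0.0227, limma). It had an adjusted p of 0.0490 without P28-WT replicate 2 and of 0.0517 with the GC and length trend removed. Rps14 had 235, 316, 279 and 222 RPKM in P28-WT libraries, against 224, 214, 193 and 208 RPKM in P10-WT libraries, with overlap. Its log2 fold change was 0.31 (SE 0.12, adjusted p = 0.0457, limma), and its adjusted p was 0.0890 without P28-WT replicate 2. Rps21, a 40S protein, had the largest positive value, 0.57 (SE 0.31), and did not pass: P28-WT replicate 2 had 337 RPKM, the other P28-WT libraries 104 to 164 RPKM and the P10-WT libraries 83.1 to 140 RPKM. The count of higher genes was 0 without P10-WT replicate 2, 1 without P10-WT replicate 3 or 4 or P28-WT replicate 2 or 3, and 3 without P28-WT replicate 4.

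**Figure D3:**
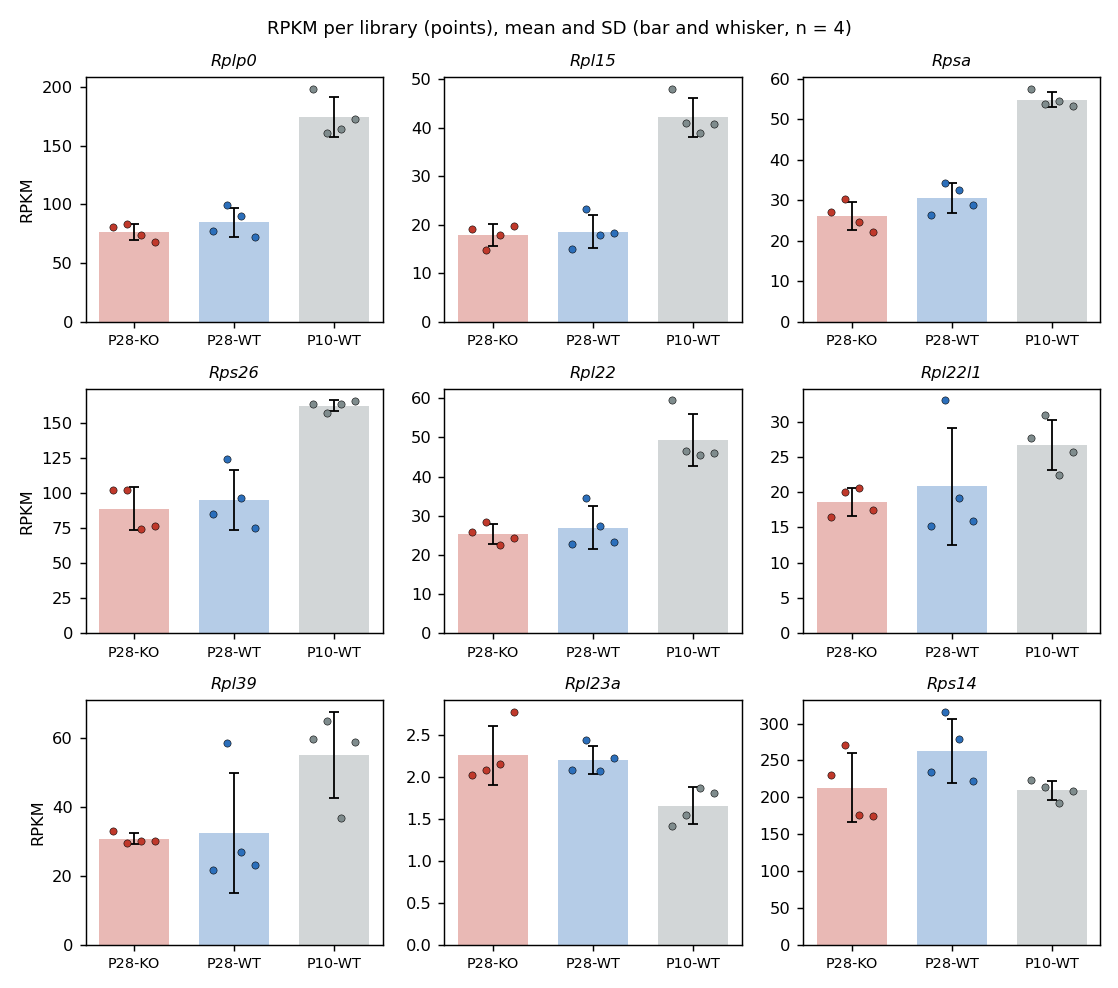
RPKM of 9 ribosomal protein genes in each library (points), with group means (bars, from 0) and SD (whiskers, n = 4). Rplp0, Rpl15, Rpsa, Rps26 and Rpl22 in both P28 groups lie below all P10-WT libraries, Rpl22l1 and Rpl39 overlap through P28-WT replicate 2, and Rpl23a in both P28 groups lies above all P10-WT libraries.

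The family holds relatives of core genes, some of them known for restricted expression. Rpl22 binds RNA and is known to repress its relative Rpl22l1. Rpl22 had 22.7, 34.5, 27.3 and 23.3 RPKM in P28-WT libraries, against 59.5, 46.5, 45.5 and 46.0 RPKM in P10-WT libraries, a log2 fold change of -0.88 (SE 0.14, adjusted p = 0.000397, limma) with no overlap. Rpl22l1 had 15.2, 33.0, 19.2 and 15.8 RPKM in P28-WT libraries, against 27.7, 30.9, 22.4 and 25.7 RPKM in P10-WT libraries, a log2 fold change of -0.42 (SE 0.22) that did not pass. It passed without P28-WT replicate 2 (-0.66, adjusted p = 0.00125, limma), and with the GC and length correction it had -0.14 (adjusted p = 0.308). The P28-WT libraries apart from replicate 2 lay below all P10-WT libraries for both genes.

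Rpl3l, a muscle gene, stayed between 0.0438 and 0.339 RPKM in the 12 libraries and was not tested, while its partner Rpl3 averaged 29.3 ± 7.01 RPKM in P28-WT and 25.6 ± 1.40 RPKM in P10-WT libraries (log2 fold change 0.17, not passed). Rpl10l, a testis gene, was listed at 0 in all libraries. Its partner Rpl10 averaged 3.33 ± 0.432 RPKM in P28-WT and 4.83 ± 0.330 RPKM in P10-WT libraries and fell with age (log2 fold change -0.53, SE 0.11, adjusted p = 0.00215, limma). Rpl39l, also a testis gene, was at most 0.210 RPKM, and Rpl37rt at most 0.335 RPKM. Rpl7 fell to 88.3 ± 19.9 RPKM in P28-WT libraries, against 121 ± 19.1 RPKM in P10-WT libraries (log2 fold change -0.47, adjusted p = 0.0278, limma), and its relative Rpl7l1 had a value of -0.10 that did not pass. Rpl36a and Rpl36al had log2 fold changes of -0.03 and -0.18, Rps27 and Rps27l of 0.01 and -0.69, and none of these 4 passed with all libraries. Rps27l, a p53 target, had 15.6 RPKM in P28-WT replicate 2, against 4.99 to 8.91 RPKM in the other P28-WT libraries and 10.8 to 14.2 RPKM in P10-WT libraries. It passed without that library (-1.01, adjusted p = 0.00124, limma) and with the GC and length correction (-0.57, adjusted p = 0.0347).

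Rps6, the substrate of the S6 kinases whose phosphorylation is read as neuronal activity, averaged 1.91 ± 0.219 RPKM in P28-WT and 2.14 ± 0.236 RPKM in P10-WT libraries (log2 fold change -0.15, not passed). Rps27a, which is made as a fusion with ubiquitin, had a log2 fold change of -0.35 that did not pass (adjusted p = 0.0770, limma), and it passed without P28-WT replicate 2 (-0.50, adjusted p = 0.00505) and with the GC and length correction (-0.45, adjusted p = 0.00396). Fau, a ribosomal protein gene that the symbol rule leaves out, had 0.35 and did not pass.

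Markers of some cell types moved strongly between these ages. All 10 oligodendrocyte and myelin genes of a fixed list were higher in P28-WT than in P10-WT libraries, with a summed level of 1948 to 2754 RPKM in P28-WT and 40.4 to 133 RPKM in P10-WT libraries. All 9 immature neuron genes were lower, with 449 to 516 RPKM in P28-WT and 2285 to 3395 RPKM in P10-WT libraries, as were 6 of the 7 tested genes of dividing cells. Markers of cortical excitatory neurons, the defining cells of the tissue, were present in every group, with 1252 to 1389 RPKM in P28-KO, 1295 to 1479 RPKM in P28-WT and 483 to 649 RPKM in P10-WT libraries. Such sums weigh the most abundant genes. Of these 7 genes 3 were higher and 2 lower in P28-WT than in P10-WT libraries, with a median log2 fold change of 0.13. In P28-KO against P10-WT libraries 3 were higher and 3 lower, with a median of -0.18. The part of the cell type makeup in the ribosomal protein result was not tested.

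The comparison of P28-KO with P28-WT libraries asked whether loss of miR-132 and miR-212 changes these mRNAs. The deletion was visible in the table: the Mir132 and Mir212 rows were listed at 0 in the 4 P28-KO libraries, against 9.74 to 14.4 RPKM for Mir132 and 14.0 to 24.7 RPKM for Mir212 in P28-WT libraries. In limma at an adjusted p under 0.05, 0 of the 82 ribosomal protein genes were higher and 0 were lower. Among all genes 0% were higher and 0.0144% lower, which are these 2 microRNA rows. At an unadjusted p under 0.05, 3 of the 82 were lower and 0 higher, where 8.11% of all genes were lower and 4.27% higher. The regularized test on RPKM named in the study's methods called 0 of the 82 after the same adjustment, and 6 lower and 0 higher at an unadjusted p under 0.05. The study itself called genes by a posterior probability of differential expression, which was not applied here. By that measure it reported many genes that differed between the genotypes, so its calls and these counts cannot be set side by side. The smallest adjusted p in the family was 0.38.

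Rpl28 and Rpl21 were among them and were chosen by these values. Rpl28, a 60S protein, had 1.93, 1.92, 1.73 and 1.48 RPKM in P28-KO libraries, against 2.49, 3.19, 1.99 and 2.44 RPKM in P28-WT libraries. It was the 1 gene of the family whose P28-KO values all lay below the P28-WT values, a pattern that 3.62% of all genes had. Its log2 fold change was -0.48 (95% interval -0.82 to -0.14, adjusted p = 0.382, limma). Rpl21, a 60S protein, had -0.30 (95% interval -0.53 to -0.07), with overlapping groups.

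The median log2 fold change of the 82 genes in P28-KO against P28-WT libraries was -0.11, against -0.03 over all genes, and 68 of the 82 were negative. Without P28-WT replicate 2 the median was 0.02, and with the GC and length trend removed it was -0.02, so the sign of this small shift changed without that library. Single genes carried 95% intervals that reached a median of 0.36 to either side of the estimate and a range between 0.20 and 1.08, and for 80 of the 82 the interval lay within a log2 change of -1 to 1. Rps27 and Rpl26, both with a listed row shorter than the RefSeq gene, were the other 2. Rplp0, with 80.5, 83.3, 73.9 and 67.8 RPKM in P28-KO libraries, had a log2 fold change of -0.14 (95% interval -0.39 to 0.10) against P28-WT libraries, and Rpl15 of -0.05 (95% interval -0.34 to 0.25). A p that misses the threshold does not show that the genotypes have equal levels.

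**Figure D4:**
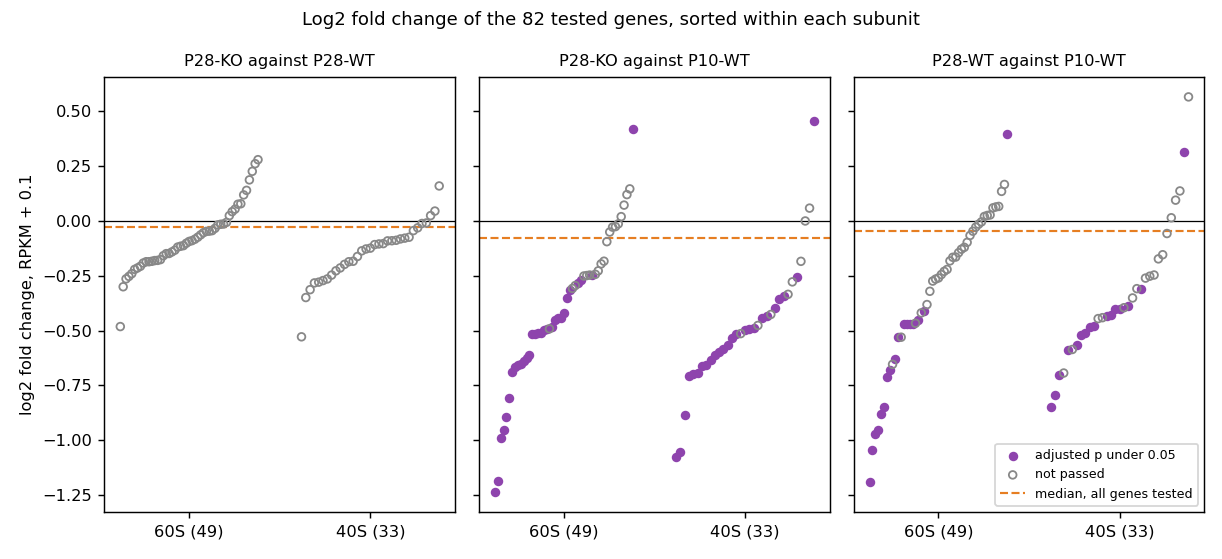
Log2 fold change of RPKM + 0.1 for the 82 tested genes in each comparison, sorted within the 60S (49 genes) and 40S (33 genes) subunits. Filled points passed an adjusted p under 0.05 (limma), open points did not, and the dashed line is the median over all 13927 genes. No point is filled between P28-KO and P28-WT, while 53 lower genes are filled between P28-KO and P10-WT and 31 between P28-WT and P10-WT.

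The P28-KO libraries were then set against the P10-WT libraries, a comparison that differs in age and genotype and shares the P10-WT libraries with the age comparison. Of the 82 genes, 53 (64.6%) were lower in P28-KO libraries and 2 (2.44%) higher, against 33.6% lower and 24.6% higher among all genes (limma, adjusted p under 0.05). For 48 of the 82 every P28-KO library lay below every P10-WT library, where 31.6% of all genes had this pattern. The median log2 fold change was -0.46, against -0.08 over all genes, and 75 genes had negative values. By subunit, 29 of 49 genes of the 60S and 24 of 33 of the 40S subunit were lower, 59.2% and 72.7% of them, beside 33.6% of all genes. With the GC and length trend removed, 55 were lower and the median was -0.46, and the share over all genes was not taken in that setting. The median standard error was 0.12 here and 0.15 between P28-WT and P10-WT libraries, and the difference between the 2 counts of lower genes was not tested.

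The genes furthest apart were again Rpl15 and Rplp0. Rpl15 had 19.1, 14.8, 17.9 and 19.8 RPKM in P28-KO libraries and a log2 fold change of -1.24 (SE 0.10, adjusted p = 4.34e-06, limma) against P10-WT libraries. Rplp0 had a log2 fold change of -1.19 (SE 0.09, adjusted p = 3.00e-06, limma). Rpsa, with 27.1, 30.4, 24.7 and 22.2 RPKM in P28-KO libraries, had -1.08 and Rps2 -1.05. Rpl30 had -0.99, Rpl22 -0.96, Rpl27 and Rps26 -0.89 each, Rpl39 -0.81 and Rps27l -0.70, all passed. For Rpl39 the P28-KO libraries were close together, with 33.2, 29.7, 30.3 and 30.1 RPKM, below all P10-WT libraries.

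Several genes that had missed the threshold between P28-WT and P10-WT libraries passed here, of which Rpl22l1, Rplp2 and Rps27a also passed in that comparison without P28-WT replicate 2, as given above. Rpl22l1 had 16.5, 19.96, 20.6 and 17.4 RPKM in P28-KO libraries and a log2 fold change of -0.51 (adjusted p = 0.00215, limma) against P10-WT libraries, and with the GC and length correction it had -0.22 and did not pass (adjusted p = 0.141). Rplp1 averaged 321 ± 38.2 RPKM in P28-KO and 408 ± 22.0 RPKM in P10-WT libraries, a log2 fold change of -0.35 (adjusted p = 0.0116, limma), and Rplp2 had -0.45 (adjusted p = 0.00619, limma), so that all 3 stalk genes were lower. Rps27a had -0.63 (adjusted p = 0.000195, limma), while Rps6 had -0.28 and did not pass. Rpl7l1 was lower by a small amount (-0.25, adjusted p = 0.0306, limma, and 0.102 with Ddx3y as a covariate) and Rpl7 had -0.52. Rpl10, Rpl36a, Rpl36al, Rpl3 and Rps27 did not pass, with values between -0.51 and -0.01.

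The 2 higher genes were Rpl23a and Rps21. Rpl23a had 2.02, 2.08, 2.15 and 2.78 RPKM in P28-KO libraries, above all P10-WT libraries, with a log2 fold change of 0.42 (adjusted p = 0.0254, limma). Rps21 had 187, 149.8, 157 and 135 RPKM in P28-KO libraries, against 108, 132, 83.1 and 140 RPKM in P10-WT libraries, with overlap, and a log2 fold change of 0.46 (adjusted p = 0.0311, limma). Rps14 did not pass here. The count of higher genes was 0 without P10-WT replicate 1 and 1 without any single other library except P10-WT replicate 4.

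The same counts were taken by features that were not used to choose the genes, and are to be read beside the 31.2% of all genes that were lower in P28-WT and the 33.6% that were lower in P28-KO against P10-WT libraries. Of the genes with CTTTC near the start, 7 of 18 tested were lower in P28-WT libraries, with a median log2 fold change of -0.26, and of those without it 18 of 43, with a median of -0.40. Between P28-KO and P10-WT libraries 13 of 18 and 27 of 43 were lower. By copies in the genome, 20 of the 53 tested genes with more than 50% shared stretches and 11 of the 29 others were lower in P28-WT libraries, with medians of -0.35 and -0.32. Between P28-KO and P10-WT libraries 34 of 53 and 19 of 29 were lower. These are descriptions over genes that share libraries, and no difference between them was tested.

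Genes that work with the ribosome were described from fixed lists in the same way. Of all genes, 31.2% were lower and 26.7% higher in P28-WT against P10-WT libraries. In P28-KO against P10-WT libraries the shares were 33.6% and 24.6%. Of 12 genes of translation elongation and termination, 8 were lower and 1 higher in P28-WT than in P10-WT libraries, with a median log2 fold change of -0.53. Eef1a1, which brings aminoacyl-tRNA to the ribosome, fell to 456 ± 40.6 RPKM in P28-WT libraries, against 783 ± 60.4 RPKM in P10-WT libraries (log2 fold change -0.78, adjusted p = 0.000186, limma). Eef1a2, the form of mature neurons and muscle, was the higher one, with 553 ± 48.7 RPKM in P28-WT and 259 ± 63.2 RPKM in P10-WT libraries (log2 fold change 1.13, adjusted p = 0.000405, limma). Of 9 tested genes outside the family with a known TOP tract, 7 were lower and none was higher. They include Pabpc1, the poly(A) binding protein, with a log2 fold change of -0.92, and Gnb2l1 (Rack1), a scaffold on the 40S subunit, with -0.50. In P28-KO against P10-WT libraries 11 of the 12 elongation genes and 8 of the 9 TOP genes were lower and 1 of each list was higher. Between P28-KO and P28-WT libraries no gene of either list passed (0 higher and 0 lower).

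Of 72 tested genes of ribosome biogenesis, which process ribosomal RNA and assemble the subunits in the nucleolus, 35 were lower and 5 higher in P28-WT than in P10-WT libraries, with a median log2 fold change of -0.23. Ddx21, a nucleolar RNA helicase, had -1.03, the nucleolar protein Ncl had -0.60 and Npm1 had -0.67. Sbds, which releases Eif6 from the maturing 60S subunit, was higher, with 37.5 ± 4.01 RPKM in P28-WT and 18.4 ± 1.04 RPKM in P10-WT libraries (log2 fold change 1.02, adjusted p = 8.52e-06, limma). In P28-KO against P10-WT libraries 42 were lower and 1 higher. The shares over all genes were 31.2% lower and 26.7% higher by age, and 33.6% and 24.6% in P28-KO against P10-WT libraries. The counts in the age comparison without P28-WT replicate 2 were 38 lower and 4 higher.

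Mitochondrial families were counted beside them, to be read against the same shares over all genes. Of 77 mitochondrial ribosomal protein genes, 8 were lower and 18 higher in P28-WT than in P10-WT libraries, with a median log2 fold change of 0.02, and of 76 tested nuclear-encoded respiratory chain genes 1 was lower and 20 were higher, with a median of 0.14. Without P28-WT replicate 2 the mitochondrial ribosomal protein genes gave 19 lower and 15 higher and the respiratory chain genes 10 lower and 16 higher. With the GC and length trend removed they gave 24 lower and 16 higher, and 7 lower and 13 higher. In P28-KO against P10-WT libraries the counts were 25 lower and 11 higher for the mitochondrial ribosomal protein genes and 7 lower and 13 higher for the respiratory chain genes. The difference of these families from the cytosolic ribosomal proteins was not tested.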

How the data were processed

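RNA of mouse visual cortex was prepared with the TruSeq RNA kit, which does not mark strand, and sequenced in 12 libraries. Per the methods, the authors aligned the reads to mm10 with ELAND and RefSeq gene models, kept reads with a unique place, and deposited RPKM, which scales reads by exon length and by the mapped reads of the library. The submitters' processing notes also name CASAVA 1.8.2, SAMtools 0.1.19 and Bowtie 0.12.8. The deposited table holds no counts, so depth is unknown and no counting interval is given. The matching 12 small RNA libraries were not used here.

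Each pair of groups was fitted alone on log2(RPKM + 0.1) with limma 3.58.1 (R 4.3.3, with a trend), two-sided, with Benjamini-Hochberg adjustment over the 13927 genes whose RPKM averaged 0.5 or more. A fold change on this scale understates that of low genes. The methods name a regularized test on RPKM, which was run as an alternative (window 101, confidence 10). It was run with Benjamini-Hochberg adjustment in place of the study's posterior probability. Other alternatives were pseudocounts of 0.01 and 1, no filter, a filter at 2 RPKM, scaling by median ratios, quantile normalization, 1 fit of all 12 libraries, the Y-linked Ddx3y as a covariate for sex, loess removal of a GC and transcript length trend (span 0.3), leaving out each library and, chosen after seeing the data, a replicate block. The fits were tested on simulated data. The genes and lists were chosen with earlier results of these data known.

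Members named with values are, per comparison, the 10 with the largest change in each direction that passed, the stalk genes, Rpsa, Rps6, Rps27a, the relatives and their partners, the 3 highest and 3 lowest by mean RPKM and those not tested. From each list up to 4 genes with the smallest p could be named, and Rpl38, Rpl28, Rpl21, Eef1a1, Eef1a2, Ncl, Npm1, Mxd1, Mxi1, Eif4ebp1, Eif4ebp2, Mtor and Larp1 were added after values were seen. Exact second copies of 50-base stretches were sought in the RefSeq genome GRCm38.p6 with Python 3.11.15, and figures were drawn with matplotlib 3.10.9. Some single genes are not reported here.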

Additional observations from a re-analysis of the deposited data

Results flagged for a closer look

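Of 96 groups of 4 libraries looked at for the named genes and the family mean, 6 (6.25%) held 1 library far from the other 3 by Dixon's criterion at the 95% level. Chance gives about 1 in 20. Rpl39 had 58.59 RPKM in P28-WT replicate 2, against 21.86 to 26.89 RPKM in the other P28-WT libraries, and this is the library that stood apart over the family. Rpl10 had 3.182 RPKM in P28-KO replicate 3, against 4.273 to 4.478 RPKM in the other P28-KO libraries. The other 4 lay in P10-WT libraries. Rpl22 had 59.47 RPKM in replicate 1, against 45.48 to 46.49 RPKM. Rpl36al had 20.55 RPKM and Rplp2 69.44 RPKM in replicate 3, against 30.58 to 32.52 RPKM and 92.78 to 96.91 RPKM in the others. Rps27l had 10.76 RPKM in replicate 4, against 13.8 to 14.21 RPKM.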

How the results depend on the processing

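The count of lower ribosomal protein genes in P28-WT against P10-WT libraries was 31. It was 50 with the Y-linked gene Ddx3y as a covariate for sex and 51 with the GC and length trend removed. When single libraries were left out it lay between 23 and 51, the 51 without P28-WT replicate 2. Of all genes, 31.2% were lower in the main fit, 33% without P28-WT replicate 2 and 31.1% with the trend removed. The share over all genes was not taken in the other settings, so their counts cannot be set beside it. In this comparison Ddx3y was near 0 in P28-WT replicate 2 alone (0.0181 RPKM, against 4.76 to 13.1 RPKM in the others). The covariate therefore mostly marked that library, and sex cannot be told apart from the library in this count. The count of 2 higher genes there was 1 without a filter, 1 under quantile normalization, 1 with all 12 libraries in 1 fit, 1 with the replicate block, 0 with Ddx3y as a covariate, 0 with the trend removed and 0 to 3 over left-out libraries. Between P28-KO and P10-WT libraries the count of 2 higher genes was 1 without a filter, 1 with all 12 libraries in 1 fit, 1 with Ddx3y, 3 with the trend removed and 0 to 2 over left-out libraries. The 53 lower genes stayed within 1.5 times that count under every alternative run, and between P28-KO and P28-WT libraries no alternative called a gene of the family (0 higher and 0 lower). The cause of these changes was not tested. Over all alternatives the median log2 fold change lay between -0.49 and -0.27 by age, -0.21 and 0.02 between P28-KO and P28-WT libraries and -0.50 and -0.39 between P28-KO and P10-WT libraries. The numbers 1 to 4 in the column names gave deviations that correlated between -0.16 and 0.28 across groups, so they were not taken as pairs, and with the replicate block 32 genes were lower by age, 30 of them among the 31, and 52 in P28-KO against P10-WT libraries. Among values of single named genes, 28 lost and 18 gained the threshold by age, 23 and 10 between P28-KO and P10-WT libraries, and no called value changed sign. Depth is unknown, so how far it limits the low genes cannot be given.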

Other observations

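Genes that control ribosome production were counted from a list of 27 mTOR, Larp1 and Myc regulators. In P28-WT against P10-WT libraries 8 were lower and 8 higher, with a median log2 fold change of -0.02, beside 31.2% lower and 26.7% higher of all genes, shares to which those of the list are close. The Myc family, transcription factors known to drive ribosome production in dividing cells, was lower: Myc had a log2 fold change of -2.42 (adjusted p = 2.91e-06, limma), Mycn of -1.76 and Mycl of -1.92. Their antagonists Mxd1 (0.83) and Mxi1 (0.85) were higher. Deptor, an inhibitor of mTOR, was higher (1.43, adjusted p = 4.45e-05, limma), as was the translation repressor Eif4ebp1 (0.76), while Eif4ebp2 was lower (-0.80). Mtor itself had -0.19 and did not pass, and Larp1, which binds TOP mRNAs, had -0.26 (adjusted p = 0.0388, limma). In P28-KO against P10-WT libraries 9 were lower and 7 higher, with Myc at -2.35, and between P28-KO and P28-WT libraries none of the 27 passed (0 higher and 0 lower by limma).

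Other cell types were counted in the same way in P28-WT against P10-WT libraries. All 9 microglia genes were higher, with a summed level of 185 to 198 RPKM in P28-WT and 73.6 to 112 RPKM in P10-WT libraries. Of 9 astrocyte genes 5 were higher and 1 lower, of 7 excitatory neuron genes 3 higher and 2 lower, and of 7 oligodendrocyte precursor genes 2 higher and 4 lower. Of 9 endothelial genes 3 were higher and 3 lower, and of 9 pericyte and meningeal fibroblast genes 6 were lower. Of the 3 tested choroid plexus genes 1 was higher and 2 were lower (0 and 1 without P28-WT replicate 2), of the 3 tested blood genes 0 were higher and 0 lower (1 and 0 without that library), and of 7 genes for nuclear transcripts and for RNA quality 3 were higher and 2 lower.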
